A study of Mus musculus with 16 samples.

Results

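The cornified envelope genes Lce, Sprr, Lor, Ivl and the filaggrin family were followed in the epidermis of aged mice after blockade of interleukin-17A and interleukin-17F. The members were the rows of the count table whose mouse symbol starts with Lce or Sprr followed by a digit, or equals Flg, Flg2, Hrnr, Rptn, Lor, Ivl, Crct1, Kprp, Crnn, Tchhl1 or Lelp1. The annotation holds 49 such genes and the table holds 47 of them, out of 27179 rows. Sprr2c-ps and Lce1j were not analysed here. All members lie on mouse chromosome 3 (build GRCm38) between position 92080271 and position 93471980. Epidermal cells came from 8 aged C57BL/6J mice, 4 given control IgG (control mice) and 4 given anti-IL-17A/F, a mixture of antibodies against both cytokines (blocked mice). Both groups were 73 weeks old at the start and were injected into the abdomen 3 times a week for 12 weeks, so age, strain and injection were shared. The study's methods separate epidermis from the skin of the torso by enzyme and scalpel and describe no sort of the epidermal suspension, so cells of hair follicles and resident immune cells could be included. Totals were 42816157 to 53721153 counts per mouse after the 2 sequencing batches of each mouse were summed.

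The epidermal differentiation complex is a gene cluster that keratinocytes switch on as they leave the basal layer and become dead, flat corneocytes. Its products build the cornified envelope, a protein shell that transglutaminases cross-link beneath the plasma membrane and that replaces it. Involucrin is laid down early as a scaffold, loricrin makes up most of the mature shell, small proline-rich (SPRR) proteins bridge it, and late cornified envelope (LCE) proteins join last. The filaggrin family carries an S100 calcium-binding domain fused to long repeats. Profilaggrin is cut into filaggrin units that bundle keratin filaments and then decay into the amino acids that hold water in the outer skin.

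These genes are built from repeats and recent duplicates, which bears on what a short-read count can show. Reads were single-end and 50 bases long, and reads that mapped to several places were not counted. Every 50-base window of each member's longest annotated transcript was therefore looked up in all transcripts of the GENCODE annotation. Flg and Hrnr repeat their own coding sequence, while Lce1, Lce3 and Sprr2a genes share windows with each other. An example of each is shown because reads from these stretches cannot be placed. The whole window is the shared or repeated part, so no letters are in capitals.
Flg, chr3:93281568-93281617, plus strand, found 17 times in its transcript: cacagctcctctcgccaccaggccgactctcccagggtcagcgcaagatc
Hrnr, chr3:93323713-93323762, plus strand, found 16 times in its transcript: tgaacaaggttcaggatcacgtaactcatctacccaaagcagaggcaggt
Lce1a1, chr3:92646762-92646811, minus strand, found in 11 genes: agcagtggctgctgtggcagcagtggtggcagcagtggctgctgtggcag
Lce3a, chr3:92925532-92925581, minus strand, found in 6 genes: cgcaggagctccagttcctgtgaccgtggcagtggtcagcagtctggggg
Sprr2a1, chr3:92219092-92219141, plus strand, found in 3 genes: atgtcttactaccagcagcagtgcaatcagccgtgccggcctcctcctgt

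Only 20.8% of the windows of Flg occurred once and in no other gene, and the share was 30.9% for Hrnr and 34.7% for Flg2. It was 3.7% for Sprr2a1 and 3.5% for Sprr2a2, so their counts say little about their expression. Sprr2a3 had 38.9%. Among the Lce1 genes the share ran from 72.9% in Lce1i to 96.8% in Lce1m, and among Lce3c, Lce3d, Lce3e and Lce3f from 50.7% to 64.3%. Lor, Sprr1a, Sprr4, Kprp, Crct1, Lce6a, Crnn and Tchhl1 were unique throughout. No member overlapped an exon of the opposite strand. The values of Flg, Flg2, Hrnr and the Sprr2a genes are thus counts over a minor part of each transcript, in both groups alike.

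**Figure D1:**
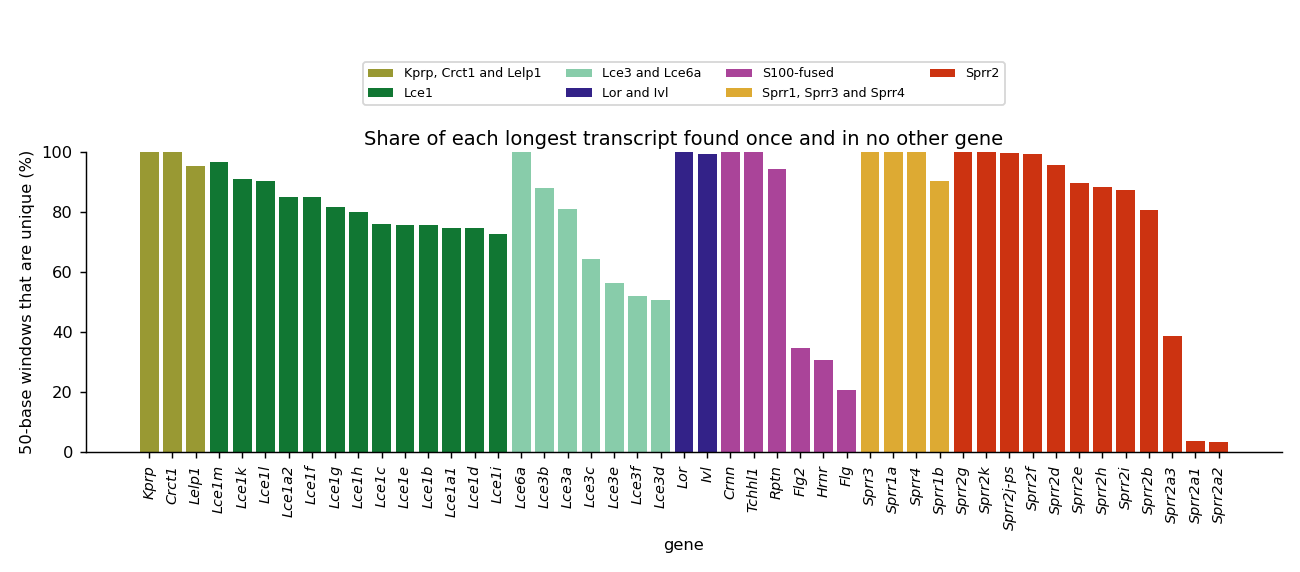
Share of 50-base windows of each member's longest annotated transcript that occur once in it and in no other gene (vertical axis, percent), for the 47 members (horizontal axis), colored by role group. Flg at 20.8% and Sprr2a2 at 3.5% stand far below Lor, Sprr1a and Kprp at 100%.

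The promoters of several members share motifs, and 5 of them are shown because these genes carry most of the values below. The sequences are from RefSeq (GRCm38.p6) and give the 120 bases before the annotated start. A promoter was on hand for 42 of the 47 members, and Crct1, Lce1f, Kprp, Sprr2g and Sprr2j-ps had none. Capitals mark TATAAA, the letters of a TATA box, on the gene's own strand, and TGANTCA, the site of the AP-1 (Jun and Fos) factors, on either strand.
Lor, chr3:92083143-92083262, minus strand: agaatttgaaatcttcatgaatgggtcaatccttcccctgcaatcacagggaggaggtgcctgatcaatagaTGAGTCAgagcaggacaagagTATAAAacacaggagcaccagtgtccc
Flg, chr3:93273426-93273545, plus strand: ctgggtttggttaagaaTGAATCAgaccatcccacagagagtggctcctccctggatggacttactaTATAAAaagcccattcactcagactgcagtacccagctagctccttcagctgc
Flg2, chr3:93197153-93197272, plus strand: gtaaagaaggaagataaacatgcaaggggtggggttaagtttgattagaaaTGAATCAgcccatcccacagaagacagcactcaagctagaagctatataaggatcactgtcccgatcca
Sprr1a, chr3:92485882-92486001, minus strand: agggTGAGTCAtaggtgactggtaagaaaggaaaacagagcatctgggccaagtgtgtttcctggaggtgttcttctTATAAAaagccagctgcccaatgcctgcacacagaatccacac
Lce1m, chr3:93019062-93019181, minus strand: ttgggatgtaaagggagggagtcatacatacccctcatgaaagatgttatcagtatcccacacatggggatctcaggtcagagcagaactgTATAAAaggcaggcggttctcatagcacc

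In the 250 bases before the start, TATAAA was found in 18 of 42 members (42.9%) against 8.12% of 27025 promoters of all genes, and TGANTCA in 16 (38.1%) against 6.87%. The AP-1 letters were in 5 of 6 promoters of the S100-fused group, 7 of 10 Sprr2 promoters and both of Lor and Ivl, and in 0 of 12 Lce1 and 0 of 7 Lce3 and Lce6a promoters. The Sprr2 promoters are near copies of each other, so their matches are not independent. GGGANTTTCC, a strict spelling of the NF-κB site, was searched on both strands because IL-17 receptors signal through that factor. It was in 0 members and 0.337% of all promoters. At that share hardly any match was to be found among 42 promoters, so the 0 does not show that NF-κB sites are absent. AACCNGTT, the site of the Grainyhead-like factors of epidermal differentiation, was in Rptn alone against 1.71% of all promoters. These are matches of letters in short windows, and no binding was measured here.

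The members differed widely in level, and their sum was a small part of the counts. All 47 members together took 199 to 415 CPM per mouse, or 0.0192% to 0.0415% of the counts, while 16 other genes of the cluster, mostly S100 genes, took 1687 to 2042 CPM. CPM is the count of a gene per 1000000 counts of the mouse, after TMM scaling of the total. Krt10, the keratin of the suprabasal layers, alone had 11459 to 14531 CPM, and the basal keratin Krt14 3210 to 4041 CPM. Basal and suprabasal cells were thus present. Krt2 was the lowest of the suprabasal list, with means of 3.53 CPM in control and 3.88 CPM in blocked mice. Other keratins of that list were abundant. Krt1 had means of 4652 and 4534 CPM, and Krt77 of 6471 and 6555 CPM, so Krt2 does not stand for the list. How fully the upper layers that express the members were sampled was not tested. Per 1000 unique windows, the scale used to compare genes, Sprr1a was the highest at 128 CPM, followed by Sprr4 at 73.1, Ivl at 31.1, Lor at 13.1 and Crct1 at 12.6 (means over 8 mice). On the same scale Lce1m stood at 7.72, Kprp at 5.73, Flg2 at 4.36, Lce1a1 at 3.63, Rptn at 2.25, Hrnr at 1.89 and Flg at 0.916. The annotated lengths of Flg2 and Flg are long and uncertain, and the built-in annotation the authors counted with was not used here.

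Of the 47 members, 23 passed the filter on low counts, 17 had some counts but were below it, and 7 had a count of 0 in every mouse. The comparison asked how gene expression in aged epidermis differs once IL-17A/F is blocked. The quasi-likelihood test of edgeR called 0 of the 23 at a Benjamini-Hochberg adjusted p below 0.1, beside 0 of all 16335 genes tested (0%), and their adjusted p ran from 0.984 to 0.995. One member, Flg, had an unadjusted p below 0.05, where 4.03% of all genes did (1.57% with lower values after the blockade). DESeq2 called 0 of the 12 members it gave an adjusted p and 0.083% of all genes with one, and limma-voom called 0 genes. The log2 fold change, always blocked against control, was below 0 in 19 of the 23, against 49.9% of all genes, with a median of -0.37 against 0.000087. The groups overlapped in all 23, while 2.42% of all genes had groups that did not. Paralogs that share sequence and lie side by side in 1 cluster are not independent, and the members also varied together between mice, so the 19 of 23 is a description of these 8 mice. Without control mouse 3 the count was 16 and the median -0.16, and without control mouse 2 they were 20 and -0.62.

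**Figure D2:**
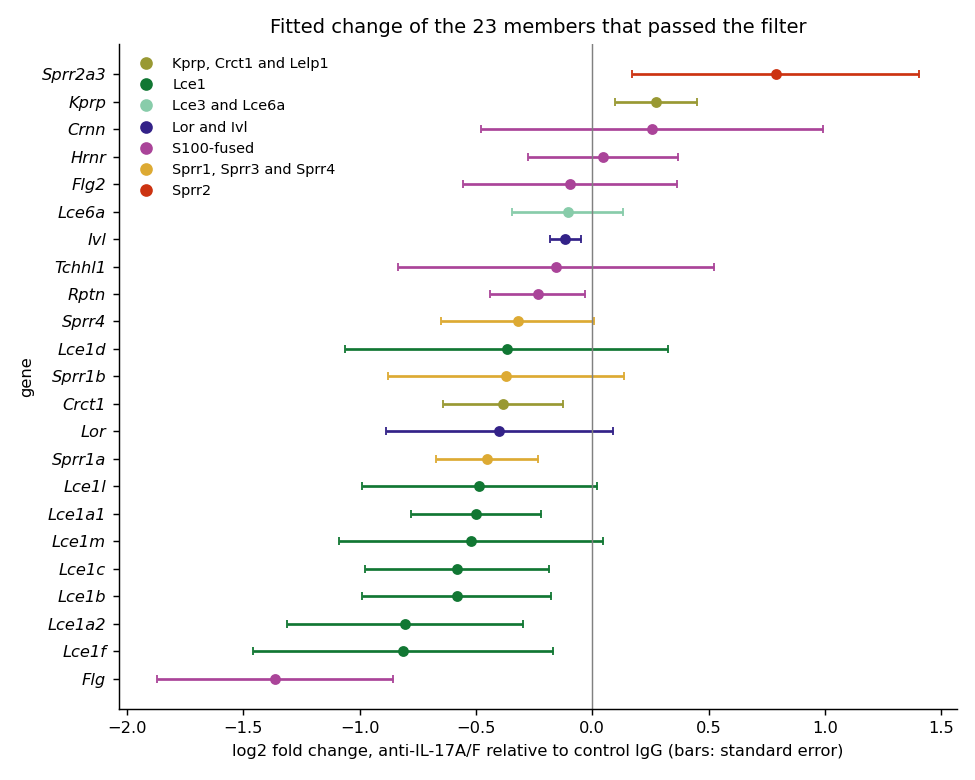
Fitted log2 fold change, blocked against control mice (horizontal axis), with its standard error for the 23 members that passed the filter (vertical axis), colored by role group. Flg lies lowest at -1.36 and Sprr2a3 highest at 0.79, and all 8 Lce1 genes lie below 0.

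Spread between mice was wide for most members. The biological coefficient of variation fitted by edgeR had a median of 0.44 over the 23 members and 0.11 over all genes tested. This measure tends to be larger in genes of low counts. Ivl was the steadiest at 0.078 and Crnn the most variable at 0.71. Within its group, control mouse 2 was the lowest in 18 of 23 members and blocked mouse 4 the highest in 16 of 23. The median log2 fold change of the members was -0.62 without the former and -0.50 without the latter. The summed level of all members was 285, 199, 329 and 415 CPM in control mice 1 to 4 and 221, 234, 259 and 298 CPM in blocked mice 1 to 4. The values of the blocked mice sat inside the control range.

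**Figure D3:**
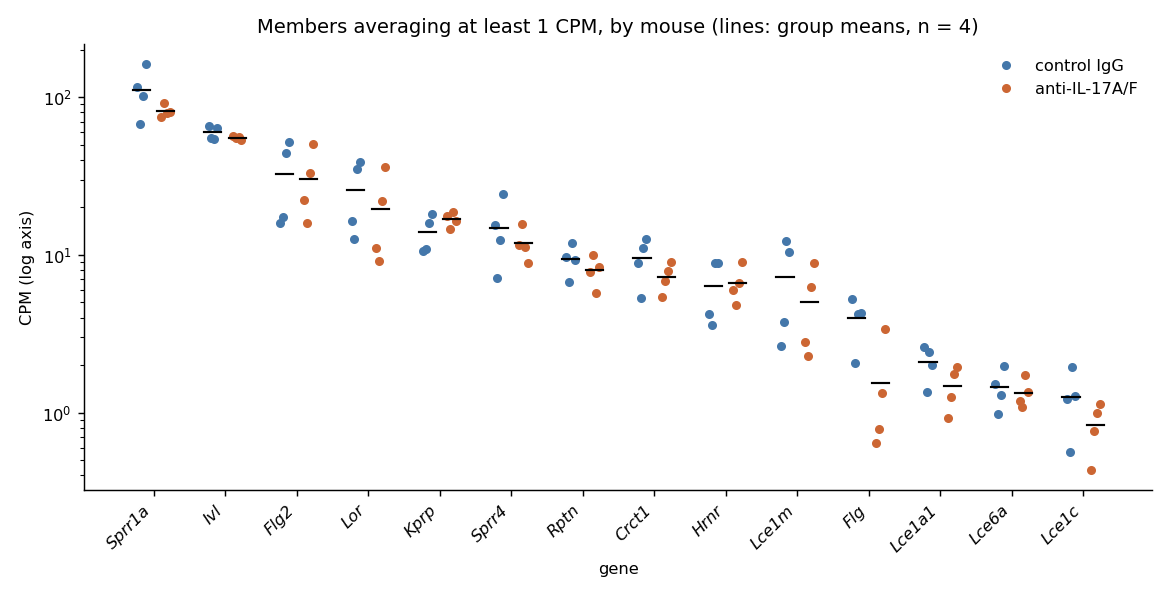
Levels in CPM on a log axis of the 14 members averaging at least 1 CPM. Each point is 1 mouse, blue for control IgG and orange for anti-IL-17A/F, and black lines are group means (n = 4). Sprr1a is the most abundant, at 67.6 to 162 CPM in control mice, and the groups overlap in every gene.

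The envelope scaffold genes differed in how steady they were. Ivl, the gene of involucrin, was at 66.0, 55.5, 54.7 and 64.2 CPM in control mice and 56.5, 55.3, 56.3 and 53.8 CPM in blocked mice. The means were 60.1 ± 5.84 and 55.5 ± 1.22 CPM (SD, n = 4 each), a log2 fold change of -0.12 (SE 0.068) that was -0.063 without control mouse 1. The blocked mice lay close to each other and to the lower control mice. Lor, the gene of loricrin, was at 16.4, 12.6, 35.1 and 38.8 CPM in control and 11.1, 9.11, 21.9 and 35.9 CPM in blocked mice. In both groups mice 3 and 4 were far above mice 1 and 2, and the labels do not say whether these numbers tie a control mouse to a blocked one. The log2 fold change of Lor was -0.40 (SE 0.49), which was -0.87 without blocked mouse 4 and -0.13 without control mouse 4. Neither gene passed edgeR (adjusted p = 0.984 for each).

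Among the S100-fused genes the widest difference was that of Flg, the gene of profilaggrin (chromosome 3, 93273546 to 93293689). It had 5.29, 2.06, 4.22 and 4.28 CPM in control mice and 0.641, 0.790, 1.33 and 3.37 CPM in blocked mice, from 814 and 310 counts. The means were 3.96 ± 1.36 and 1.53 ± 1.26 CPM, and 3 of the 4 blocked mice lay below every control mouse. The log2 fold change was -1.36 (SE 0.51), with an unadjusted p of 0.025 and an adjusted p of 0.984 by edgeR. DESeq2 gave -1.37 with an adjusted p of 0.620, the smallest over the alternatives, which reached 0.9999. The value was -2.10 without blocked mouse 4, the blocked mouse inside the control range, and -1.10 without blocked mouse 1. It stayed below 0 in all 18 alternative fits, which share mice and are not independent, and 8 of them left out 1 mouse. Since 79.2% of the windows of Flg repeat within the gene, these counts come from the minor part that does not.

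Its neighbors with the same architecture had values nearer to 0. Flg2, the gene of filaggrin-2, was at 16.005, 17.3, 44.5 and 52.0 CPM in control and 22.2, 15.99, 32.9 and 50.2 CPM in blocked mice, a log2 fold change of -0.10 (SE 0.46). Hrnr, the gene of hornerin, was at 4.22, 3.60, 8.84 and 8.91 CPM and 6.03, 4.79, 6.61 and 8.96 CPM (0.046, SE 0.32). The high mice in both genes were again 3 and 4 of the control group, with 3 and 4 the highest of the blocked group as well. Rptn, the gene of repetin, was at 9.75, 6.71, 11.9 and 9.27 CPM and at 7.84, 10.02, 5.75 and 8.40 CPM (-0.23, SE 0.20), and leaving out control mouse 3 or control mouse 2 gave -0.10 or -0.36. The differences between Flg and these genes were not tested. Flg2 turned to 0.23 without control mouse 4 and Hrnr to -0.15 without control mouse 2, so neither has a settled direction.

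Crnn and Tchhl1 had their extremes in other mice than Lor. Crnn, the gene of cornulin, was at 1.31, 0.443, 1.01 and 0.313 CPM in control and 0.113, 0.372, 1.37 and 1.80 CPM in blocked mice, a log2 fold change of 0.26 (SE 0.73) that was -0.30 without blocked mouse 4. Tchhl1, a trichohyalin-like gene, was at 0.501 to 2.00 CPM in control and 0.226 to 2.01 CPM in blocked mice (-0.16, SE 0.68), and its value was 0.54 without control mouse 1. The keratin Krt25 of the inner root sheath of the hair was at 12.8, 7.30, 20.3 and 3.40 CPM in control and 1.11, 2.19, 18.9 and 33.3 CPM in blocked mice. Crnn, Tchhl1 and Krt25 were all lowest in blocked mouse 1 and highest in blocked mouse 4. The 13 measured markers of hair shaft and inner root sheath, none of them at 0 in the series, varied widely in sum. The sums were 186, 104, 189 and 76.5 CPM in control and 59.9, 88.4, 188 and 334 CPM in blocked mice. Blocked mouse 4 alone lay above the control range. Of the 13 markers, 12 had a positive log2 fold change, where 49.9% of all genes were below 0, and the markers are not independent. The part of hair follicle cells in the values of Crnn, Tchhl1, Flg and Lce1 genes was not tested. In bulk samples fewer cells of a type and less RNA per cell cannot be told apart.

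The SPRR genes were led by Sprr1a, the most abundant member by CPM. Sprr1a, which encodes a cross-bridging envelope protein also induced by stress, was at 116, 67.6, 102 and 162 CPM in control and 74.4, 91.7, 79.9 and 80.7 CPM in blocked mice. The control mice spread over 2.39 times, with the highest and the lowest value of the series among them, and the blocked mice sat close together. The means were 112 ± 39.0 and 81.7 ± 7.27 CPM, a log2 fold change of -0.45 (SE 0.22) with an unadjusted p of 0.0675 and an adjusted p of 0.984 by edgeR, and it was -0.22 without control mouse 4. Sprr4, which lies next to it in the cluster, was at 15.4, 7.09, 12.4 and 24.2 CPM and 11.6, 15.6, 11.2 and 8.94 CPM (-0.32, SE 0.33). Its order over the control mice was that of Sprr1a, and it turned to 0.024 without control mouse 4. Sprr1b had 0.173 to 1.22 CPM in control and 0.275 to 0.619 CPM in blocked mice (-0.37, SE 0.51), and it turned to 0.16 without control mouse 3. Sprr3, a gene of mucosal linings, had 0 counts in all 8 mice, which allows up to 0.0144 CPM in the control and 0.0152 CPM in the blocked mice (3 counts over the group).

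The Sprr2 genes, known to be induced when the skin barrier is inflamed or damaged, had few counts in both groups, and most reads of Sprr2a1 and Sprr2a2 could not be placed. Sprr2a3 alone passed the filter, with 0.0990, 0.0963, 0.535 and 0.469 CPM in control and 0.452, 0.953, 0.491 and 0.213 CPM in blocked mice, from 62 and 101 counts. Its log2 fold change of 0.79 (SE 0.62) was the highest of the members and did not pass (adjusted p = 0.984 by edgeR), and it was 0.36 without blocked mouse 2, which held the highest value, and 1.22 without control mouse 3. Sprr2h, the next in level, had 28 counts over the control and 19 over the blocked mice, a ratio of 0.717 per total count (95% exact interval 0.378 to 1.33, counting error only). The other Sprr2 genes had 0 to 7 counts in all 8 mice together.

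All 8 Lce1 genes that passed the filter had a log2 fold change below 0, from -0.37 in Lce1d to -0.81 in Lce1f, with a median of -0.55. The median was -0.29, with 7 of 8 below 0, without control mouse 3, -0.34 without blocked mouse 1 and -0.92 without blocked mouse 4. LCE1 proteins are late cornified envelope components of normal skin. Lce1m, the most abundant, was at 2.65, 3.78, 12.2 and 10.5 CPM in control and 2.79, 2.28, 6.30 and 8.86 CPM in blocked mice (-0.52, SE 0.57), with mice 3 and 4 of each group the highest, as in Lor. Its value was -0.15 without control mouse 3 and -0.94 without blocked mouse 4. Lce1a1, with the smallest unadjusted p of the group (0.107), was at 2.59, 1.35, 2.41 and 1.99 CPM and 0.924, 1.26, 1.77 and 1.95 CPM (-0.50, SE 0.28, adjusted p = 0.984 by edgeR). Here the 2 highest values were in control mice and the 2 lowest in blocked mice, with overlap between. Lce1a2 was at 1.27, 0.732, 2.01 and 1.04 CPM and 0.189, 0.488, 1.02 and 1.18 CPM (-0.80, SE 0.51). Lce1c was at 1.23, 0.559, 1.95 and 1.27 CPM and 0.434, 0.767, 1.00 and 1.14 CPM (-0.58, SE 0.40). Blocked mouse 1 was the lowest mouse of the series in both. Without it Lce1a2 was at -0.48 and Lce1a1 at -0.33, and Lce1c was at -0.28 without control mouse 3. The other 4 were rarer. Lce1b was at 0.617 to 1.53 CPM in control and 0.320 to 1.06 CPM in blocked mice (-0.58, SE 0.41), and Lce1l at 0.308 to 0.802 and 0.0943 to 0.581 CPM (-0.49, SE 0.50). Without control mouse 3 these were -0.30 and -0.085, and without blocked mouse 4 both were -0.91. Lce1d was at 0.0963 to 0.650 and 0.0697 to 0.503 CPM (-0.37, SE 0.69) and turned to 0.26 without control mouse 3, and Lce1f was at 0.0771 to 0.478 and 0.0377 to 0.271 CPM (-0.81, SE 0.64), with -0.33 without control mouse 3 and -1.32 without blocked mouse 4.

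Summed over its 13 genes, Lce1 was at 10.6, 7.82, 22.8 and 16.7 CPM in control and 4.98, 5.90, 12.0 and 15.9 CPM in blocked mice, or 14.5 ± 6.64 and 9.69 ± 5.17 CPM. The sum leaves out reads from stretches that Lce1 genes share, since reads that mapped to several places were not counted, and the groups overlapped. The 5 Lce1 genes below the filter also had fewer counts after the blockade. Lce1e had 33 counts in control and 13 in blocked mice, a ratio of 0.416 (95% exact interval 0.201 to 0.812), and Lce1i had 29 and 12 (0.437, 0.203 to 0.883). Lce1g had 17 and 2, with both counts of the blocked group in mouse 4 (0.124, 0.0139 to 0.523). Lce1k had 20 and 7 counts (0.370, 0.132 to 0.910). Lce1h had 16 and 9 (0.594, 0.231 to 1.43), an interval that includes equal levels. These intervals cover counting error only and leave out the spread between mice.

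The LCE3 genes, whose human counterparts are induced by barrier injury and in psoriasis, were at the limit of detection. Lce3a, Lce3e and Lce3f had 0 counts in every mouse, Lce3b and Lce3d had 3 counts each over the control mice and 0 over the blocked mice, and Lce3c had 9 and 5. At these depths no difference was detectable. Counts of these genes also miss reads, since 50.7% of the windows of Lce3d and 52.0% of those of Lce3f were unique. Lce6a was at 1.53, 0.983, 1.30 and 1.97 CPM in control and 1.19, 1.09, 1.73 and 1.35 CPM in blocked mice (-0.11, SE 0.24), and it turned to 0.081 without control mouse 4.

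**Figure D4:**
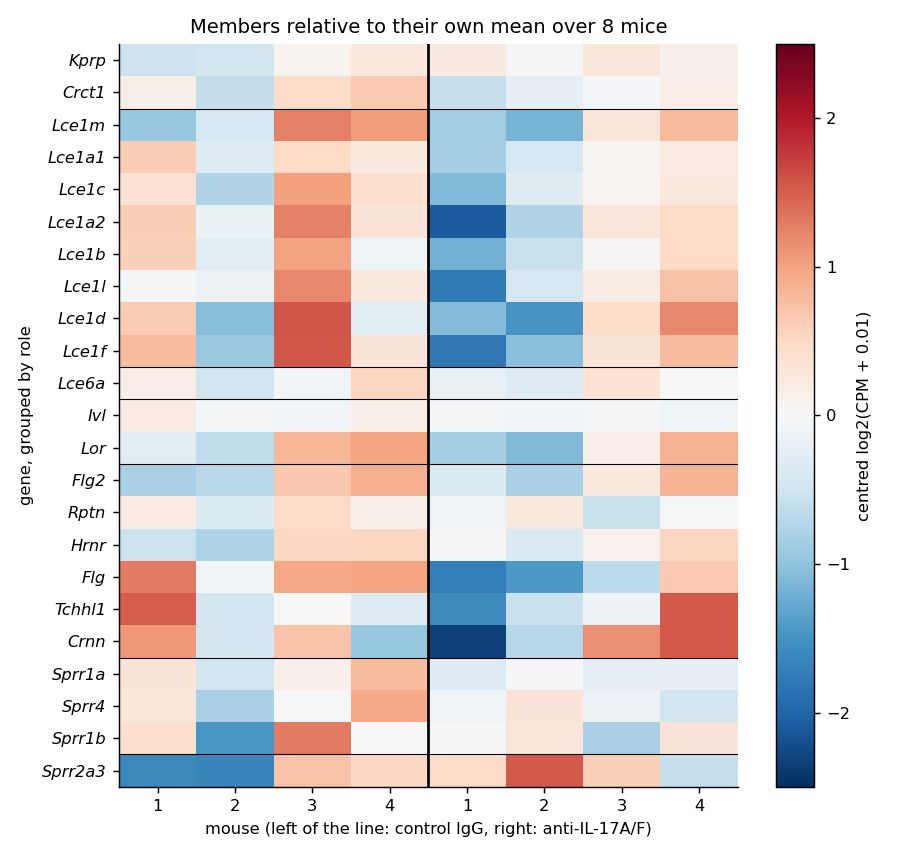
Level of the 23 members that passed the filter (rows, grouped by role) in each mouse (columns), as log2(CPM + 0.01) minus the gene's mean over the 8 mice, red for higher and blue for lower. Ivl is nearly level in all mice, most Lce1 genes are reddest in control mouse 3 and bluest in blocked mouse 1, and Lor, Flg2 and Lce1m share 1 pattern over the mice.

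Kprp, the gene of a proline-rich protein of the outer epidermis, was among the 4 members with a positive value. It was at 10.6, 10.9, 16.01 and 18.1 CPM in control and 17.6, 14.6, 18.7 and 16.3 CPM in blocked mice (0.27, SE 0.18), and leaving out control mouse 1 or control mouse 4 gave 0.17 or 0.43. Control mice 1 and 2 lay below all blocked mice and the other two within their range. Crct1, which lies between Lce3 and Lce1m in the cluster, was at 8.89, 5.32, 11.1 and 12.7 CPM and 5.43, 6.86, 7.89 and 8.98 CPM (-0.38, SE 0.26), with -0.21 without control mouse 4 and -0.58 without control mouse 2. Lelp1 had 0 counts in every mouse. Neither Kprp nor Crct1 passed edgeR (adjusted p = 0.984 for each).

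Partners of these proteins were compared in the same fit. Of 22 genes for cross-linking the envelope, processing filaggrin and shedding corneocytes, 14 had lower values and 8 higher. Their median log2 fold change was -0.046, and over all genes tested 49.9% had lower values. None was called. Casp14, the protease that helps break filaggrin down, was at 137, 110, 95.5 and 95.4 CPM in control and 72.1, 72.4, 76.4 and 94.4 CPM in blocked mice. Its log2 fold change was -0.47 (SE 0.13), with an unadjusted p of 0.00563 and an adjusted p of 0.984 by edgeR. It was the 1 gene of the 22 whose groups did not overlap and the 1 with an unadjusted p below 0.05. Over all genes tested these shares were 2.42% and 4.03%, so 1 of 22 is near what any list of this size would hold. Klk7, a protease that cuts the junctions between corneocytes, was at 204, 113, 112 and 120 CPM and 46.5, 56.3, 82.6 and 144 CPM (-0.74, SE 0.35). The transglutaminases lay on the other side of 0, with Tgm1 at 0.056 (SE 0.15), Tgm3 at 0.23 (SE 0.34) and Tgm5 at 0.030 (SE 0.13). Blocked mouse 4 was the highest blocked mouse in Casp14, Klk7 and Flg. This was not particular to them, since it was also the highest in Tgm1, Tgm3 and Tgm5 and in 16 of the 23 members.

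Of 26 transcription factors of late differentiation, 20 had lower and 6 higher values (median -0.10), and none was called. Over all genes tested, 49.9% had lower values, and the list as a whole was not tested. Hopx, a homeodomain factor of differentiating keratinocytes, was at 84.3, 87.5, 98.2 and 95.4 CPM in control and 112, 98.6, 111 and 96.9 CPM in blocked mice. Its log2 fold change was 0.19 (SE 0.069, unadjusted p = 0.0208, adjusted p = 0.984 by edgeR), against the direction of most of the list. It was the 1 gene of the 26 with an unadjusted p below 0.05, near the share of 4.03% over all genes. The AP-1 gene Jun was at 859, 1236, 1824 and 1823 CPM and 1063, 826, 1408 and 1279 CPM (-0.33, SE 0.25), so control mice 3 and 4 and blocked mice 3 and 4 were its highest, as in Lor, Flg2 and Lce1m. Jun is a gene that tissue dissociation can induce, and its part in those levels was not tested. Of 16 other genes of the cluster, the S100 genes, Tchh, Pglyrp3, Pglyrp4 and Smcp, 11 had lower and 5 higher values (median -0.056).

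Markers of the layers and of other cells gave the setting. The 10 suprabasal genes had a median of 0.0097 and the 6 basal genes of -0.037, close to the median over all genes. Stress keratins were at 983 to 1591 CPM in control and 1136 to 1649 CPM in blocked mice in sum. Macrophage and dendritic markers were lower in 5 of 5 cases, with sums of 33.7 to 114 CPM in control and 38.6 to 61.0 CPM in blocked mice. Cd207, the Langerhans cell marker, was at 5.31, 6.98, 21.6 and 17.7 CPM and 9.44, 6.86, 10.1 and 7.30 CPM, high in the same control mice as Lor. T cell markers were lower in 5 of 5 cases (median -0.24), with sums of 90.9 to 147 CPM in control and 89.4 to 133 CPM in blocked mice. Endothelial markers were higher in 3 of 3 cases (sums of 3.81 to 4.37 and 3.39 to 9.79 CPM) and melanocyte markers in 4 of 4 (45.1 to 69.8 and 45.2 to 117 CPM), with blocked mouse 4 the highest in both. Fibroblast markers were mixed, with 2 lower and 3 higher (median 0.055). Their sums were 17.1 to 35.1 CPM in control and 22.7 to 40.7 CPM in blocked mice. Skeletal muscle markers summed to at most 0.697 CPM. None of these markers was called, and over all genes tested 49.9% had lower values. Sebocyte markers had sums of 6906 to 12368 and 5757 to 8638 CPM. The mucosal keratins Krt4 and Krt13 summed to at most 4.18 CPM. Their part in the levels of the members was not tested.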

How the data were processed

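Per the labels and the study's methods, poly(A) libraries of epidermal cells were sequenced as single-end reads, aligned to mm10 with STAR 2.5.2b and counted with featureCounts, multi-mapping reads left out. The deposited values are raw counts per gene, from 16 columns for 8 mice. Both sequencing batches of a mouse were summed. Of 27179 identifiers, 25275 matched a RefSeq symbol. The groups were compared with edgeR 4.0.16 (R 4.3.3, TMM, filterByExpr with a minimum count of 10 and a minimum total of 15, quasi-likelihood test, called at adjusted p below 0.1), with DESeq2 1.42.0 and limma 3.58.1 among the alternatives, and the fit was tested on simulated counts. All tests were two-sided. The columns are labeled batch 1 and batch 2, and each mouse is in both. The labels do not say whether these are the experimental batch that the study used as covariate. No batch was fitted. The members and lists were chosen with earlier results of these data known. In each role group, values per mouse are given for up to 3 members of highest mean CPM and up to 3 of smallest unadjusted p. Uniqueness was checked against transcripts, not the genome.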

Additional observations from a re-analysis of the deposited data

Results flagged for a closer look

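Tchhl1 in control mouse 1 stood apart from the other control mice, at 2.00 CPM against 0.688 CPM in the next highest (the gap was 0.875 of the range of the 4 mice, past Dixon's 95% limit). This was 1 of 46 member and group pairs examined, and chance marks about 1 in 20.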

How the results depend on the processing

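No alternative called a member. Of 399 member values over 18 alternatives, 379 kept the direction and 20 reversed, in 8 members. Only 3 of the 20 came from fits that kept all mice. Several of those fits change scaling, filter or dispersion alone and could hardly move a value, so the 379 is no measure of stability. Over all genes DESeq2 called 11 against 0 by edgeR. Members with a log2 fold change below 0 numbered 31 of 40 with DESeq2, 31 of 40 with no filter and 12 of 14 at a mean of at least 1 CPM, since each tests another number of members. The limma-voom fit gave a median of -0.66 with 21 of 23 members below 0, and -0.66 for Crnn and -0.046 for Hrnr, and sequencing batch 1 alone gave -0.052 for Hrnr. Leaving out 1 mouse moved Crnn between -0.30 and 0.64, Flg2 between -0.45 and 0.23, Hrnr between -0.15 and 0.25, Lce1d between -1.01 and 0.26, Lce6a between -0.25 and 0.081, Sprr1b between -0.68 and 0.16, Sprr4 between -0.55 and 0.024, and Tchhl1 between -1.09 and 0.54. It left 16 to 21 of 23 members below 0, with medians of -0.62 to -0.16. The cause was not tested. With the replicate number as a block, 19 of 23 members were below 0 (median -0.34) and 0 were called. Deviations of same-numbered mice from their group means had correlations of -0.27, 0.25, 0.19 and -0.14. Those of differently numbered mice ran from -0.31 to 0.30. These values are too few to decide whether the numbers pair the mice. Counts of Flg, Flg2, Hrnr, Sprr2a and Lce3 genes are limited by repeated sequence, and those under the filter by depth.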
